A study of Mus musculus with 12 samples.

Results

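The resting transcriptome of the lumbar dorsal root ganglion (DRG) was described from the 6 sham-operated libraries of a series of 12. They were chosen by their operation label: 3 libraries were from female and 3 from male C57BL/6 mice at post natal week 8, all after a sham operation in place of the nerve injury given to the other 6. Ganglia of lumbar levels 3 to 5 were the source of the RNA. Libraries were made with a QuantSeq kit, sold for reading the 3′ ends of transcripts, but the labels also list RNA fragmentation and reverse transcription from random hexamers. Which of these applies was not settled here: with reads from 3′ ends alone CPM compares genes directly, and with reads from whole transcripts the level per length does, so both are given. Single reads came from a NextSeq 500. No source used here gives the number of animals behind each library, the side of the body, the time after the operation or a group without any operation, and the ganglia are described as sham and not as naive. Libraries are named by sex and replicate number, from Female sham 1 to Male sham 3.

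A DRG holds the cell bodies of the primary sensory neurons, whose axons run from skin, muscle and viscera to the spinal cord. Large myelinated neurons carry touch and limb position, and small neurons with thin or unmyelinated axons carry pain, itch, heat and cold. Satellite glia wrap each cell body, Schwann cells wrap the axons, and fibroblasts, blood vessels and resident macrophages fill the space between them. The ganglion is dissected whole, so a level in these bulk libraries is the sum over its cells: fewer cells of a type and less RNA per cell cannot be told apart.

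Between 13009808 and 14737582 counts were assigned to genes per library, and 16055 to 16834 gene symbols had at least 1 count. Levels are given as CPM, the counts of a gene scaled to the same total in every library, for which 3 counts correspond to 0.204 to 0.231 CPM. Of 23238 symbols, 13718 had a mean of at least 1 CPM, 1968 had at least 100 CPM and held 72.0% of all counts, and 84 had at least 1000 CPM and held 27.5%. Pairwise correlations of log2(CPM + 1) across genes ran from 0.949 to 0.985, and the 5 that involved Female sham 2 were the lowest, from 0.949 to 0.972. Female sham 2 had 517 genes at 50% or less of the mean of the other 5 libraries, against 11 to 32 in each of those. Levels for this count were log2(CPM + 1), averaged on that scale, for genes with a mean of at least 5 CPM. Results that rest on Female sham 2 are also given without it. Male sham 3 had the lowest share of ribosomal RNA, 6.14% of counts against 9.78% to 11.03%. The 4 genes given as markers were present in every library: the neuronal genes Nefl, Uchl1 and Calca had means of 5519.5, 5215 and 1292 CPM, and the satellite glia gene Fabp7 had 63.7 CPM.

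Ranked by CPM, the protein-coding genes of the sham ganglion were led by those of the neuronal cytoskeleton. After the 45S ribosomal RNA precursor Rn45s, with a mean of 96529 CPM, the most abundant symbol was Map1b, a microtubule-associated protein of axons, at a lowest, median and highest value of 6579, 7771 and 10771 CPM. The neurofilament genes, which encode the intermediate filaments that set axon calibre, held 3 of the next places: Nefm at 4190.0, 5541 and 6591 CPM, Nefl at 4552, 5582 and 6185 CPM, and Nefh at 3189, 3778 and 4188 CPM. Female sham 1 was the lowest library for each of these 4 genes. Uchl1, a deubiquitinating enzyme that is among the most abundant proteins of neurons, ranged from 4689.7 to 5965 CPM with a median of 5182 CPM.

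Around these stood genes used by most cells. Hsp90ab1, a chaperone, had a mean of 4941 ± 454 CPM (SD, n = 6), and Actb, cytoplasmic actin, 4589 ± 521 CPM. The tubulin genes Tuba1a and Tubb5 followed at 3921 ± 329 and 2866 ± 290 CPM. Apoe, the lipid carrier made by satellite glia, was the most abundant gene of the glial lists at 4622 ± 562 CPM. Timp2, an inhibitor of matrix metalloproteinases, and Fstl1, a secreted glycoprotein, had 3558 ± 393 and 3151 ± 311 CPM. Hba-a1, the α-globin of red blood cells, had 4358 ± 891 CPM and the non-coding RNA Malat1 had 3349 ± 1178 CPM. The first genes outside the 20 and outside every gene list were Syt11, a synaptotagmin, at 2472 ± 114 CPM, the ubiquitin pseudogene Gm1821 at 2348 ± 184 CPM, and Tppp3, a tubulin polymerisation factor, at 2286 ± 207 CPM. All 20 genes remained the top 20 when any 1 library was left out.

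The ranking by CPM compares genes only if reads came from 3′ ends. With random priming along the transcript, which the labels also name, the ranking per length would be the fitting one. When each gene's CPM was divided by the length of its transcript and scaled back to the same total per library, giving a level per kilobase, short transcripts moved up. On that scale Hba-a1 ranked 1 at 16761 and Uchl1 ranked 2 at 11929, while Nefl ranked 16 at 4396, Map1b ranked 56 at 1849.5, Akap5 ranked 89 and Malat1 ranked 97. The 100 most abundant symbols held 29.0 ± 1.49% of all counts (SD, n = 6), from 26.4% in Male sham 3 to 30.9% in Female sham 2, and 21.5 ± 0.573% once Rn45s was left out.

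**Figure D1:**
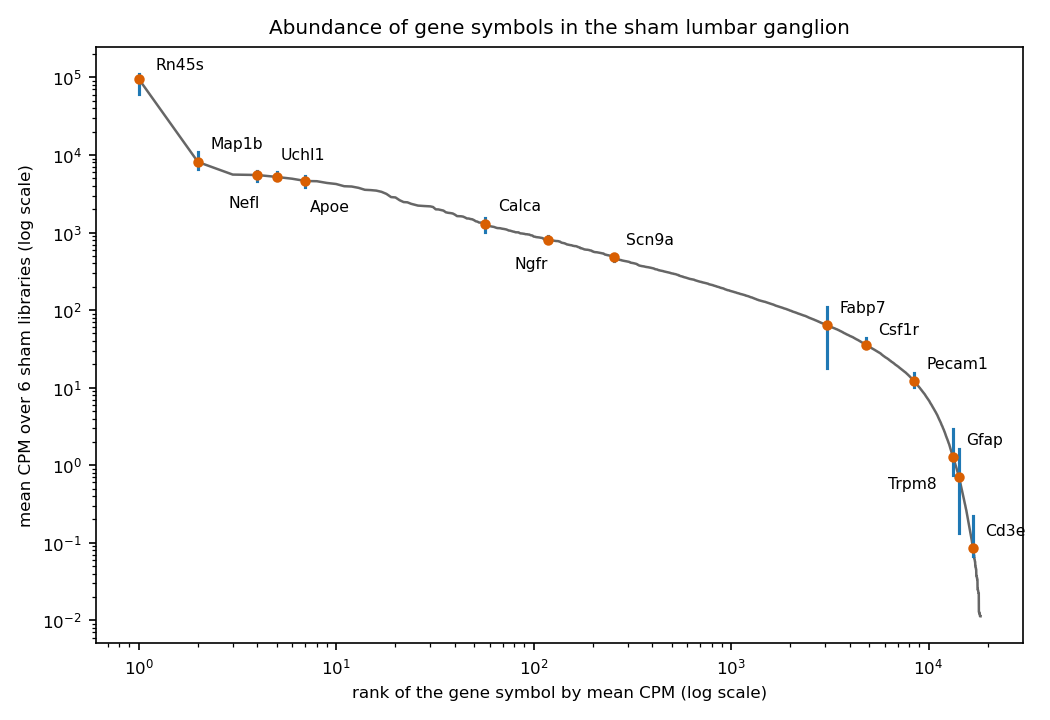
Mean CPM of every gene symbol with a count, over the 6 sham libraries, against its rank, both on log scales. Orange points mark named genes and blue bars run from the lowest value above 0 to the highest value among the libraries. Neurofilament genes stood within the first 13 ranks, Calca lay near 1292 CPM, Fabp7 near 63.7 CPM with a wide bar, and the T cell gene Cd3e near 0.0847 CPM.

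A pair among the 20 had nearly the same level in each library. Lrrc17, a secreted leucine-rich repeat protein, had 3404, 3035 and 3442 CPM in the females and 3578, 3560 and 4128 CPM in the males, all in replicate order. Akap5, a kinase anchor protein of the synapse, had 3339, 3005 and 3418 CPM in the females and 3522, 3533 and 4018 CPM in the males. The ratio of Akap5 to Lrrc17 stayed between 0.973 and 0.993 in every library, although the genes lie on chromosomes 12 and 5. Their GENCODE transcripts share a stretch of 94 bases at 94.7% identity on opposite strands. Each transcript also matches the start of Bc1, a short non-coding RNA of neurons made by RNA polymerase III. Of Bc1, 91 bases align to Lrrc17 at 97.8% identity on the same strand, and 106 to Akap5 at 93.4% on the opposite strand. Where these matches lie within Lrrc17 and Akap5 was not recorded, and Bc1 was not searched against other genes. Bc1 itself was counted at 13.0 CPM. Its transcript (GENCODE vM21, GRCm38, chr7:144914470-144914637, plus strand) is shown with the part aligned to Lrrc17 in capitals.
Bc1: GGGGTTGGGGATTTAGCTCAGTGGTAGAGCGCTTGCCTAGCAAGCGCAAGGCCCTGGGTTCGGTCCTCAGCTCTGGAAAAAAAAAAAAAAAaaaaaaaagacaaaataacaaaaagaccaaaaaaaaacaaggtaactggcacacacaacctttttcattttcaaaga
Which transcript gave the counts of Lrrc17 and Akap5 cannot be told apart in gene counts, and their places in the ranking are uncertain for that reason.

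Other abundant symbols shared letters in the same way. Gm1821, a copy of the polyubiquitin gene Ubb that is 97.7% identical over 617 bases, had 2348 CPM while Ubb had 0.509 CPM. Hba-a1 had 4358 CPM and Hba-a2, 99.8% identical over 538 bases, had 26.5 CPM. The β-globin symbols Hbb-bs and Hbb-b1 had 1029 and 1023 CPM at a ratio of 0.989 to 0.999 in every library, and Hbb-bt and Hbb-b2 had 441 and 435 CPM. Tuba1a and Tuba1b are 97.6% identical over 803 bases and had 3921 and 1399 CPM. How the counts of such copies divide between them depends on the authors' read assignment, and the level of each copy is uncertain. Bc1 and these copies were named after their values were seen.

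The 18 pan-neuronal genes were the highest class of the ganglion. Each of the 18 had a mean above 100 CPM, their median was 885 to 954 CPM in the libraries with a mean of 908 ± 27.1 CPM (SD, n = 6), and together they held 3.46% of all counts. Beside the neurofilaments and Uchl1, Prph, the intermediate filament of small neurons, had 2610.2 ± 182 CPM, Tubb3, the neuronal β-tubulin, 2452 ± 184 CPM, Stmn2, a microtubule regulator of growing axons, 2226 ± 175 CPM, and Sncg, γ-synuclein, 2176 ± 142 CPM. Map2, the dendritic microtubule protein, was the lowest of the list at 166 ± 23.7 CPM. On the per-kilobase scale the class median was 1049, and it remained the highest class.

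Genes of the sensory neuron subtypes ranged from above 1000 CPM to below 1 CPM. Calca, which encodes the peptide CGRP of peptidergic nociceptors, had 1375, 1027 and 1156 CPM in the females and 1386, 1254 and 1553 CPM in the males, so the sexes overlapped. Tac1, the substance P precursor, had 425 ± 56.7 CPM. The heat and capsaicin channel gene Trpv1 had 60.6 ± 8.15 CPM, and Trpa1, the channel for pungent irritants, 16.9 ± 2.08 CPM. Among nonpeptidergic nociceptor genes, Scn11a had 353 ± 22.7 CPM, Gfra2, a receptor for neurturin, 165 ± 14.9 CPM, P2rx3, an ATP-gated channel, 159 ± 9.73 CPM, and Mrgprd 121 ± 30.3 CPM. Mrgprd was lowest in Female sham 2, at 71.7 CPM against 111 to 163 CPM in the other libraries. The list medians were 124 ± 15.4 CPM for the nonpeptidergic and 87.4 ± 6.66 CPM for the peptidergic genes, with the nonpeptidergic list higher in 6 of 6 libraries. Per kilobase the medians were 79.8 ± 12.6 and 83.6 ± 6.44, in the opposite order, and the higher list was the peptidergic one in 4 of 6 libraries.

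Touch and limb position lists lay at similar levels in CPM. Piezo2, the mechanically gated channel of touch and proprioception, had 548 ± 55.6 CPM, against 14.9 ± 2.39 CPM for its relative Piezo1. Ldhb, Pvalb, which marks proprioceptors, and Ntrk2, the BDNF receptor, had 179 ± 13.3, 173 ± 28.2 and 171 ± 6.22 CPM, and Ntrk3, the receptor for neurotrophin-3, had 108 ± 24.2 CPM. Th, tyrosine hydroxylase, which marks the unmyelinated neurons of gentle touch in this ganglion, had 86.8 ± 8.18 CPM. The large-fibre list had a median of 53.6 ± 6.72 CPM and the C low-threshold list 52.7 ± 2.90 CPM, and each was the higher in 3 of 6 libraries. Per kilobase the C low-threshold list was the higher in each library, at 64.0 ± 5.74 against 38.0 ± 4.15.

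Markers of rarer sensory neurons were low. The 9 genes of itch neurons had a median of 8.59 ± 1.82 CPM, led by Il31ra, a subunit of the interleukin-31 receptor, at 34.2 ± 10.7 CPM, Mrgpra3, a receptor for itch-inducing compounds, at 17.3 ± 2.59 CPM, and Osmr, its partner in the interleukin-31 receptor, at 15.9 ± 5.76 CPM. Mrgprb4 was at 0 in 5 libraries and at 0.204 CPM in Male sham 3. Trpm8, the cold and menthol channel, had 0.136 to 1.61 CPM with a median of 0.593 CPM, and all 6 libraries lay below Trpa1's lowest value of 14.3 CPM.

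Of 18 neuropeptide genes, 13 had a mean of at least 5 CPM. After Calca and Tac1 came Nmb, neuromedin B, at 274 ± 27.8 CPM. Calcb, which encodes the second CGRP, had 152 ± 11.2 CPM, below Calca in each library. Gal, galanin, had 147 ± 15.0 CPM, Npy 17.9 ± 2.85 CPM, Nppb 12.3 ± 5.65 CPM and Sst, somatostatin, 10.96 ± 2.19 CPM. Vip had no count in any library, which allows a level of up to 0.231 CPM at the depth of the shallowest one. Such limits cover counting error only.

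Ion channel genes showed which members carried the signal of each family. Of 14 voltage-gated sodium channel genes, 12 had at least 5 CPM. Scn9a, the channel Nav1.7 of nociceptors and sympathetic neurons, had 425 to 537 CPM with a median of 477 CPM. Scn10a, the tetrodotoxin-resistant Nav1.8, had 395 to 492 CPM with a median of 448 CPM. These genes overlapped across libraries, and Scn11a, from 338 to 398 CPM, overlapped with the lower end of Scn10a. Scn4a, the channel of skeletal muscle, had 1.66 ± 0.714 CPM. Per kilobase, Scn10a stood at 178, Scn11a at 161 and Scn9a at 131. Scn4b, a β-subunit gene, had 13.4 CPM in Female sham 2, below the other libraries at 42.9 to 63.6 CPM.

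Channels of the other lists differed as widely. After Piezo2, the acid-sensing channel gene Asic2 had 202 ± 41.7 CPM. The order differed per kilobase, with Asic3, of the same family, at 162.1, Asic2 at 158.0 and Piezo2 at 137.5. Of 22 potassium channel genes, 19 had at least 5 CPM, led by the β-subunit gene Kcnab2 at 766 ± 51.9 CPM, Kcna1, a channel beside the nodes of Ranvier, at 740 ± 62.3 CPM, and Kcna2 at 254 ± 32.6 CPM. Kcnd3 had no count in any library. Growth factor receptors were led by Ngfr, the common low-affinity neurotrophin receptor of neurons and glia, at 806 ± 55.9 CPM, and Gfra1, the receptor for GDNF, at 204 ± 32.5 CPM. Among genes of synaptic release, Cplx1, a complexin, had 805 ± 85.1 CPM, Syt4 623 ± 30.6 CPM and Syt1 490 ± 35.2 CPM. Slc17a6, the vesicular glutamate transporter VGLUT2, had 276 ± 14.8 CPM and exceeded VGLUT1 (Slc17a7) at 53.3 ± 6.92 CPM and VGLUT3 (Slc17a8) at 8.41 ± 1.46 CPM in every library. Of 14 transcription factor genes of sensory neurons, 13 were found under their listed symbol or a synonym. Pou4f1, which maintains the sensory neuron programme, was the highest at 250 ± 21.3 CPM, then Klf7 at 189 ± 36.5 CPM and Isl2 at 140 ± 18.2 CPM. The nociceptor factor Runx1 had 101 ± 6.33 CPM and the proprioceptor factor Runx3 29.0 ± 4.22 CPM.

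**Figure D2:**
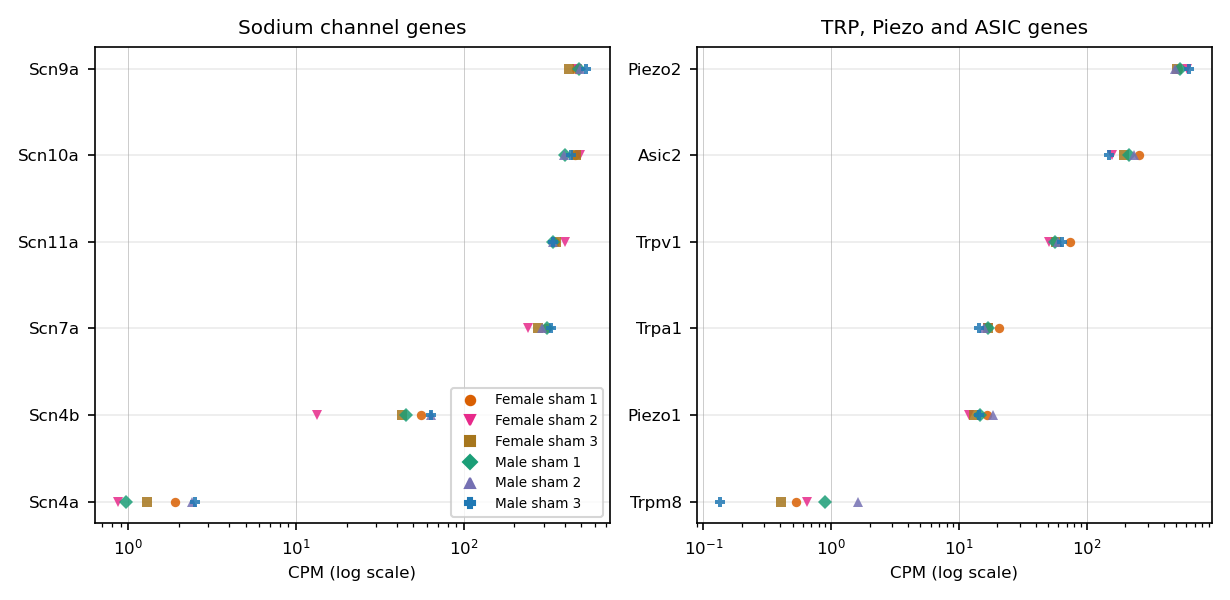
CPM (log scale) of the named sodium channel genes, left, and the named TRP, Piezo and ASIC genes, right, with 1 symbol per sham library. Scn9a, Scn10a and Scn11a formed the upper group on the left, Piezo2 stood above every other gene on the right, Scn4b was low in Female sham 2, and Trpm8 was the lowest gene on the right.

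Glial genes differed by kind of glia. The 16 myelinating Schwann cell genes had a median of 72.1 ± 13.3 CPM and summed to 5841 ± 1102 CPM, to which the growth arrest gene Pmp22 gave 1140.4 CPM and myelin basic protein, Mbp, 867 CPM. Mbp had 739, 413 and 910 CPM in the females and 901, 989 and 1247 CPM in the males, and Female sham 2 was the lowest. The 8 satellite glia genes had a median of 63.7 ± 18.1 CPM and a sum of 5537 ± 482 CPM, most of it Apoe. Glutamine synthetase, Glul, had 335 CPM, and the inwardly rectifying potassium channel gene Kcnj10 29.5 CPM.

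Fabp7, the brain lipid-binding protein of satellite glia, was the most uneven of the 4 markers. It had 109, 18.1 and 55.9 CPM in the females and 62.0, 67.4 and 69.3 CPM in the males. Female sham 1 and Female sham 2 were the highest and lowest of the 6. Female sham 2 was also lowest for 6 of the 8 satellite glia genes, and the list median there was 31.2 CPM against 61.6 to 86.1 CPM elsewhere. Apoe did not follow, at 5133 CPM in Female sham 2 within a range of 3825 to 5337 CPM.

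Genes shared by glia were led by S100b, a calcium-binding protein, at 2208 CPM, then L1cam, an adhesion molecule of axons and unmyelinating Schwann cells, at 296 CPM and Scn7a at 293 CPM. Sox10, the transcription factor of peripheral glia, had 91.1 CPM with a range of 75.7 to 111 CPM. Gfap, an intermediate filament, had 1.27 CPM with a range of 0 to 2.90 CPM. Erbb3, the neuregulin receptor of Schwann cells, was counted at 0.317 CPM.

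Connective tissue genes were abundant. Of 12 fibroblast and matrix genes, 7 had at least 100 CPM, with Sparc, a matrix protein, at 1481 CPM, Apod, an apolipoprotein of perineural and endoneurial cells, at 1289 CPM and the collagen gene Col1a2 at 970 CPM. The list median was 164 ± 30.6 CPM, and Female sham 2 was the lowest library for 7 of the 11 members with at least 5 CPM. Col1a2 had 513 CPM in Female sham 2, below the other libraries at 986 to 1198 CPM.

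Vascular genes stood far lower. The 15 endothelial genes had a median of 11.2 ± 1.22 CPM, none reached 100 CPM, and the highest were Egfl7 at 43.7 CPM, Ly6c1 at 35.5 CPM and the phosphatase gene Ptprb at 24.7 CPM. Pecam1 (CD31), the general endothelial marker, had 10.3 to 15.5 CPM. The 10 mural genes, of pericytes and smooth muscle, had a median of 7.29 ± 1.56 CPM, led by the pericyte gene Rgs5 at 37.1 CPM. Acta2, smooth muscle actin, had 46.9 CPM in Female sham 3, above a range of 10.6 to 17.1 CPM in the other libraries, and 5 of 6 measured mural genes were highest in Female sham 3. Red cell genes were uneven: their list median was lowest in Female sham 2, at 274 CPM, and highest in Male sham 3, at 621 CPM, and 7 of 8 measured members were highest in Male sham 3. Of those 8 members, the Hbb-bs and Hbb-b1 symbols, and Hbb-bt and Hbb-b2, repeat each other.

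Immune genes were low but present. The 17 macrophage genes had a median of 8.03 ± 1.64 CPM and summed to 193 ± 30.8 CPM. Csf1r, the receptor for colony stimulating factor 1, had 35.5 CPM with a range of 32.1 to 44.2 CPM, complement C1qa 25.1 CPM, the protease gene Ctss 22.0 CPM and the fractalkine receptor gene Cx3cr1 16.7 CPM. The resident macrophage gene Mrc1 had 10.4 CPM, and Cd68, a lysosomal protein, 2.05 CPM. Neutrophil genes were led by S100a9 at 98.4 CPM and S100a8 at 35.2 CPM, with a list median of 8.63 ± 2.72 CPM. None of 10 T and NK cell genes reached a mean of 5 CPM and 9 were below 1 CPM. Cd8a had 3.61 CPM in Male sham 2, 0.652 CPM in Female sham 2 and 0 in the other 4. Of 7 B cell genes 6 were below 1 CPM. The mast cell gene Tpsb2 had 5.19 to 18.3 CPM, highest in Male sham 2.

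Set in order by list median, the classes ran from pan-neuronal genes through red cell, fibroblast, nociceptor, myelinating Schwann, satellite glia, shared glial, large-fibre and C low-threshold genes to MHC class II, endothelial, neutrophil, itch neuron, macrophage and mural genes. The first 5 places held in 6 of 6 libraries against the class below. The red cell median of 435 CPM lies at the level of Hbb-b2 (434.9 CPM), whose counts repeat those of Hbb-bt. The place of this class was not computed with the repeated β-globin symbols removed and is uncertain. Myelinating Schwann exceeded satellite glia genes in 5 of 6, satellite glia exceeded shared glial genes in 4 of 6, and the shared glial, large-fibre and C low-threshold lists each exceeded the next in 3, 3 and 5. Endothelial genes exceeded neutrophil genes in 5 of 6, and neutrophil, itch and macrophage genes were not separated. Against the pan-neuronal median, on the log2 scale, fibroblast genes lay at -2.49 ± 0.33, myelinating Schwann at -3.68 ± 0.31, satellite glia at -3.90 ± 0.53, endothelial at -6.35 ± 0.15, macrophage at -6.85 ± 0.32 and mural genes at -6.99 ± 0.36 (mean ± SD, n = 6). Without Female sham 2 the satellite glia value was -3.69.

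Part of this order depended on the scale. Per kilobase, satellite glia genes stood at 97.0 ± 28.8, above myelinating Schwann genes at 38.9 ± 7.59, and macrophage genes at 13.5 ± 1.37 stood above endothelial genes at 6.5 ± 1.07 in each library. By summed CPM, red cell genes followed the neurons at 7348 ± 1643 CPM, a sum that counts the repeated β-globin symbols separately. Then came myelinating Schwann, satellite glia and fibroblast genes, the last at 5211 ± 631 CPM. The myelinating Schwann sum exceeded the satellite glia sum in 4 of 6 libraries. A list's level depends on which genes were put on it, so the order describes these lists and not numbers of cells.

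**Figure D3:**
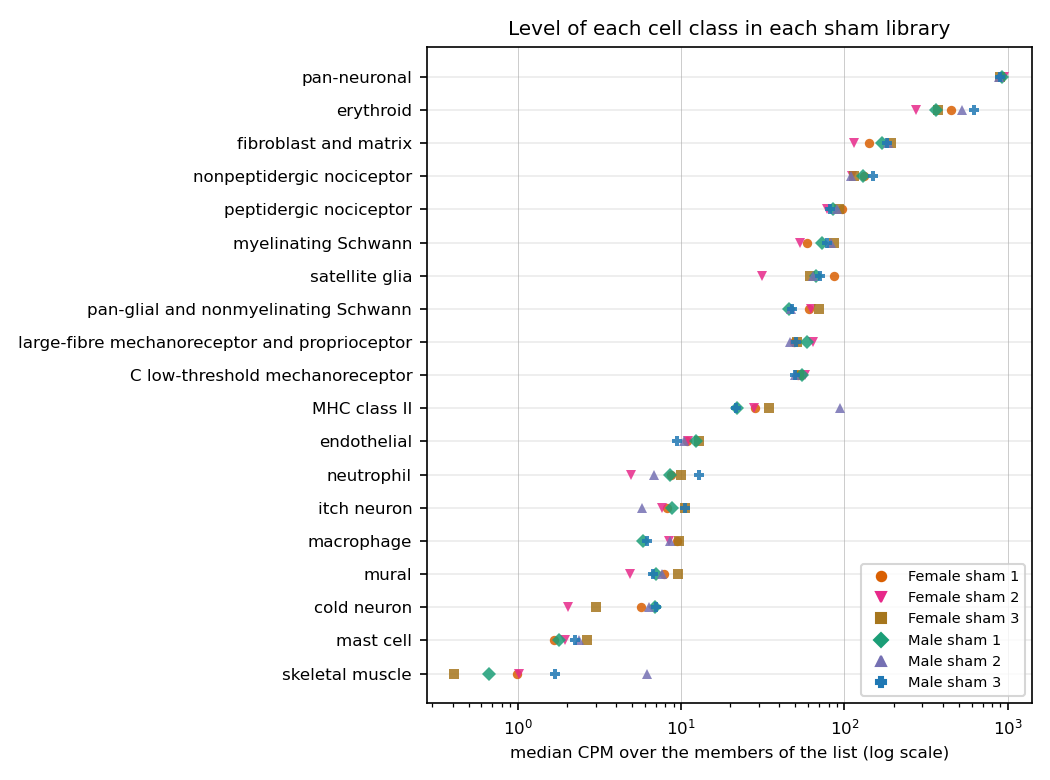
Median CPM over the members of each cell class list (log scale), with 1 symbol per sham library. Pan-neuronal genes lay near 908 CPM in every library, Female sham 2 was the lowest library for satellite glia at 31.2 CPM and for red cell genes at 274 CPM, and Male sham 2 stood alone for MHC class II at 94.4 CPM.

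Lists of tissue that a dissection could carry along had low medians, except red cell genes at 435 ± 124 CPM. That red cell median includes β-globin symbols that repeat each other. Of 8 genes of the central nervous system, 7 had less than 1 CPM and 3 had no count in any library. Aqp4, a water channel, had 5.06 CPM. Adipocyte genes had a median of 0.322 ± 0.372 CPM, and cartilage and bone genes 0.729 ± 0.390 CPM, with Ibsp the exception at 13.6 CPM. Skeletal muscle genes had a median of 1.83 ± 2.20 CPM and summed to 68.1 CPM in Male sham 2 against 6.75 CPM in the lowest library.

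Genes known to rise in injured sensory neurons were already measurable in sham ganglia. Gal, Sox11, a transcription factor of axon growth, and Sprr1a, a cytoskeletal protein of regrowing axons, had 147 ± 15.0, 122 and 96.3 CPM, and Atf3, a transcription factor induced by axon damage and named after its values were seen, had 44.4 to 60.4 CPM with a median of 51.3 CPM. Each was present in all 6 libraries, and whether these are naive levels cannot be told from sham samples alone. Among immediate early genes, Jun had 131 CPM, Junb 28.8 CPM and Dusp1 17.4 CPM. Interferon-stimulated genes were led by Ifitm3 at 112 CPM, Rsad2 at 25.5 CPM and Oasl2 at 21.8 CPM, heat shock genes by Hsp90aa1 at 2197 CPM and Hspb1 at 1382 CPM, and cholesterol synthesis genes by Hmgcs1 at 889 CPM.

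Metabolic and ribosomal genes had similar medians. The 18 nuclear genes of oxidative phosphorylation had a median of 252 CPM, led by Atp5g3 at 851 CPM and Cox6a1 at 733 CPM, and the 20 ribosomal protein genes a median of 227 CPM, led by Rplp1 at 1216 CPM. The cholesterol list was the more even of these, with a median within-sex SD of 0.086 on the log2 scale. None of 9 mitochondrially encoded symbols was among the counted symbols.

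Spread between libraries was measured as the SD of log2(CPM + 1) within each sex, pooled over both sexes, for 10805 genes with a mean of at least 5 CPM. The median SD was 0.196, against 0.069 from counting alone, and it fell with level from 0.277 between 5 and 20 CPM to 0.128 between 100 and 1000 CPM. In all, 8595 genes had an SD at least 2 times their counting SD. An SD of 0.5 or more was found in 554 genes, 5.13% of those ranked, and in 208 genes without Female sham 2. The most even genes with at least 50 CPM were Jak1, a kinase of cytokine receptors, at 911 to 980.2 CPM, Hmg20b at 52.7 to 61.4 CPM, and the deubiquitinase gene Usp15 at 77.4 to 81.5 CPM, with SDs of 0.021, 0.021 and 0.023. The microtubule plus-end gene Mapre1, at 336 to 366 CPM, was also among the 10 most even, with Tmem50b, Kank4, Ola1, Chid1, Dcaf12 and Tprgl.

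Of the 20 genes with the largest SD, 19 were set apart by low values in Female sham 2. Fam166b had 1.01 CPM there and 28.8 to 48.3 CPM in the others, and Rusc2, whose exons overlap those of Fam166b, had 1.74 CPM and 34.9 to 55.5 CPM. Zdhhc8, a palmitoyltransferase, had 4.995 CPM against 62.5 to 97.9 CPM, and Gnb2, a G protein β-subunit, 18.9 CPM against 101 to 189 CPM. Pfn1, profilin, had 1.96 CPM against 13.2 to 38.1 CPM, and the fumarase gene Fh1 5.50 CPM against 36.5 to 46.0 CPM. In each of these the other 5 libraries did not overlap with Female sham 2. The SD of rank 20, Slc2a12, was 1.112 and that of rank 21, Med31, was 1.109. The other members were Ccdc53, Clcn2, Kctd13, Mgst3, Prkci, Ost4, Sds, Cfap20, Gm561, Bambi, Apba3 and Slc25a22, all low in Female sham 2, and Irf8.

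Female sham 2 was low in many genes and high in few. Its 517 genes at 50% or less of the mean of the others included 62 at 25% or less, and 14 genes were 2-fold or more above that mean. Tmsb4x, thymosin β4, named after its values were seen, had 472 CPM there and 994 to 1861 CPM elsewhere. Of the 517 genes, 489 (94.6%) had a GENCODE coding transcript. The last 300 bases of these had a median GC content of 38.7%, against 42.3% for the other genes, and across 10202 genes the difference of Female sham 2 from the other libraries had a Spearman correlation of 0.32 with that GC content. This correlation was -0.35 for Male sham 3 and 0.25 for Female sham 3, and it is across genes, which are not independent replicates. The part of base composition in the low values was not tested.

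Ranked without Female sham 2, 1 of the 20 genes remained, Irf8, and 10 of the new 20 were farthest in Male sham 2. Irf8, the transcription factor of dendritic cells and macrophages, had 4.96, 6.15 and 6.00 CPM in the females and 3.27, 35.4 and 5.09 CPM in the males. The α-chain gene H2-Aa of MHC class II, the complex that presents peptides to CD4+ T cells, had 26.7, 27.2, 34.1, 23.3, 117 and 22.1 CPM in the same order, and H2-Ab1, its β-chain, 30.3, 27.4, 34.8, 20.4, 93.9 and 21.0 CPM. H2-Eb1 had 95.01 CPM and Cd74, the invariant chain, 64.5 CPM in Male sham 2, against at most 41.7 and 30.3 CPM. Each of the 4 MHC class II genes was at least 2-fold above the mean of the other libraries there, and no other library overlapped with it. The leukocyte gene Cd52, named after its values were seen, had 19.5 CPM against 5.23 to 9.19 CPM. Macrophage genes as a list had a median difference from the other libraries of 0.18 in Male sham 2, on the log2 scale, against 1.71 for MHC class II and against 0.39 for macrophage genes in Female sham 3. Of the 10 macrophage genes with a mean of at least 5 CPM, 2 were highest in Male sham 2 and 1 was lowest there. Csf1r had 32.7 CPM in Male sham 2 and Cx3cr1 10.8 CPM, its lowest value.

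Muscle genes were high in the same library. Ttn, titin, which is on no list and was named after its values were seen, had 23.9 CPM in Male sham 2 and 2.79 to 10.5 CPM elsewhere, the skeletal actin gene Acta1 14.9 CPM against 1.98 to 8.89 CPM, and the fast myosin gene Myh4 18.1 CPM against 0.409 to 3.46 CPM. The 9 listed muscle genes, which include Acta1 and Myh4, together made 68.1 CPM of that library. The part of carried-over tissue in its immune genes was not tested.

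Start regions are shown because the genes were high together in 1 library; the genes and the letters searched were chosen after their values were seen. CTGATTGG, the letters of the Y box to which the factor NF-Y binds in MHC class II promoters, was searched on both strands in the 250 bases before each start site. It was found in H2-Aa, 51 bases before the start site, in H2-Eb1, 62 bases before, and in Irf8, 124 bases before, and in 4.1% of 27025 RefSeq promoters (GRCm38.p6). Also searched were ATTGG, which lies within these letters and was found in 34.5% of promoters, and TATAAA, found in 13.0% and in Irf8, 31 bases before its start site. H2-Ab1 gave no match in this search, and Cd74 was left out of it. The stretches hold the 150 bases before the start site, with these letters in capitals: H2-Aa from chr17:34287824-34287973 on the minus strand, H2-Eb1 from chr17:34305717-34305866 and Irf8 from chr8:120736208-120736357, both on the plus strand.
H2-Aa: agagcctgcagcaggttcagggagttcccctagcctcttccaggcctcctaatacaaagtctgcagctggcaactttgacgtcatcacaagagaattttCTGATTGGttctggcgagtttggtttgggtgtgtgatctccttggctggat
H2-Eb1: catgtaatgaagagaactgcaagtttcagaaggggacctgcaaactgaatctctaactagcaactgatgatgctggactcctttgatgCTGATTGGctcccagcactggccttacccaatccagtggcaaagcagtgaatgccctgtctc
Irf8: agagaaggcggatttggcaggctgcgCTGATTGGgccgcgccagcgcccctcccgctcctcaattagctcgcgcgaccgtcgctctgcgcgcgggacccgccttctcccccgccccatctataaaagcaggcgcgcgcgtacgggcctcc
A match describes the letters of the window and not a bound site.

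**Figure D4:**
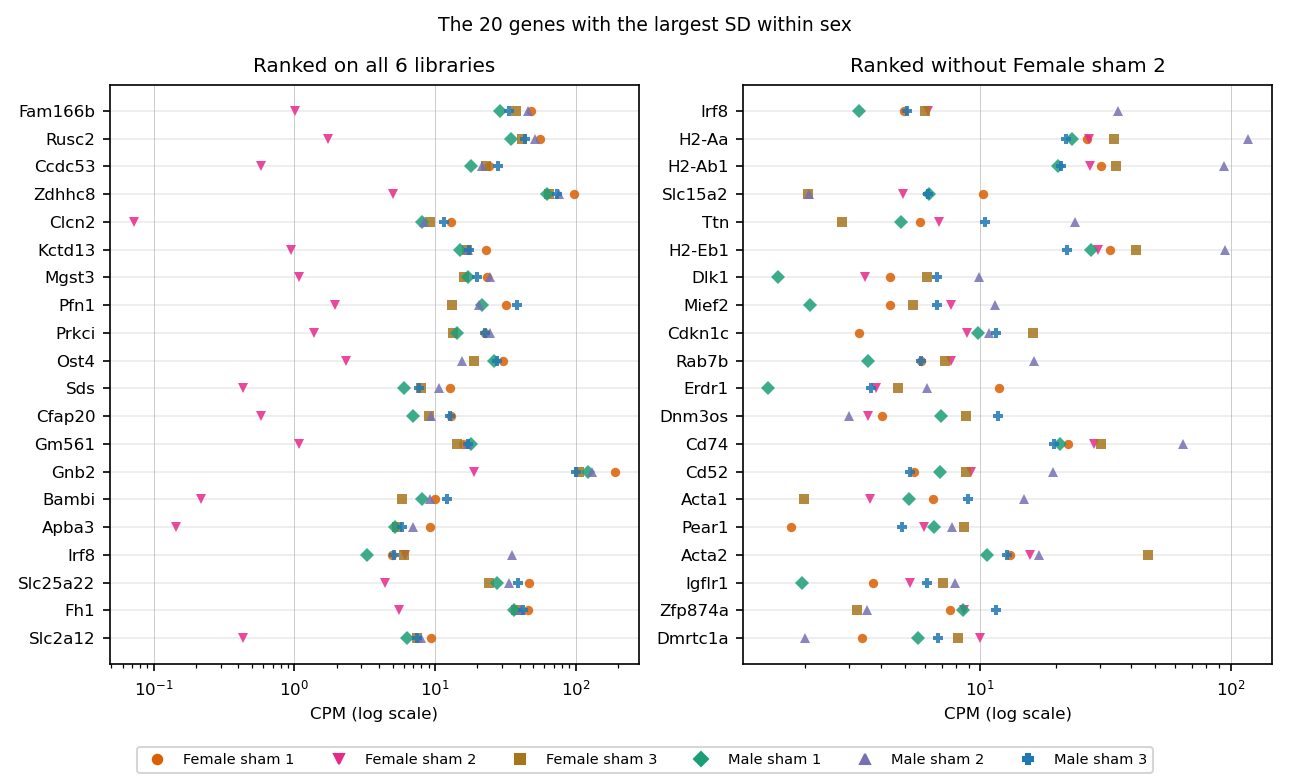
CPM (log scale) of the 20 genes with the largest within-sex SD, ranked on all 6 sham libraries, left, and without Female sham 2, right, where that library is still drawn. On the left, Female sham 2 lies below the other libraries for 19 genes, and Irf8 is high in Male sham 2; on the right, MHC class II genes and Ttn stand out in Male sham 2 and Acta2 in Female sham 3.

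Single libraries stood apart for other genes as well. In Male sham 3, Malat1 had 5731 CPM against 2643 to 3093 CPM and Meg3, another nuclear long non-coding RNA, 2694 CPM against 1378 to 1805 CPM, in the library with the lowest share of Rn45s. In Female sham 3, the imprinted RNA H19 had 93.5 CPM against 28.0 to 37.5 CPM and the secreted Wnt inhibitor gene Sfrp4 18.4 CPM against 3.84 to 7.02 CPM, beside Acta2. These genes were chosen after their values were seen.

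Most genes that passed the edgeR test between the sexes lay on the sex chromosomes. With edgeR's quasi-likelihood test on the 3 female and 3 male sham libraries, 8 of 14269 genes, 0.0561%, passed an adjusted p of 0.05 (Benjamini-Hochberg), 4 higher in males (0.028%) and 4 higher in females (0.028%). The count depended on the tool: DESeq2 called 29 genes, 13 higher in males and 16 higher in females, with the same 8 among them. The chromosomes of the further DESeq2 genes were not looked up. The libraries of the sexes did not overlap for 2173 genes, 15.2% of those tested. Labels do not say that the libraries came from separate animals, so these p-values measure the spread between libraries, which may in part be technical.

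The sex chromosome genes matched the sex labels in every library. Ddx3y, an RNA helicase gene of the Y chromosome, had 94.5, 80.3 and 79.0 CPM in the males and 0.534, 0.0724 and 0.0681 CPM in the females. Uty, Eif2s3y and Kdm5d had 748, 430 and 160 counts over the 3 male libraries and 0 over the 3 female libraries, at least 252-fold, 145-fold and 53.8-fold higher in males against a floor of 3 counts over the female libraries. Xist, the RNA that coats the inactive X chromosome, had 166, 128 and 162 CPM in the females and 2 counts over the 3 male libraries, and its antisense partner Tsix had 4214 and 3 counts. No source used here gives the strand used in counting, and reads of Xist and Tsix cannot be told apart. Of the 4 other listed genes expressed from the inactive X, none passed: Kdm5c had 47.1 ± 4.27 CPM in females and 32.8 ± 1.84 CPM in males (adjusted p = 0.484, edgeR).

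On autosomes, 2 genes passed the edgeR test, both higher in females. Stom, stomatin, a membrane protein that modulates mechanosensitive and acid-sensing channels, lies at chr2:35313986-35336976 (GRCm38, GENCODE vM21). It had 79.5, 64.9 and 68.0 CPM in the females and 40.5, 36.8 and 29.0 CPM in the males, without overlap, a log2 difference of -1.03 ± 0.16 (SE, adjusted p = 0.0361, edgeR). The non-coding gene 1700030C10Rik on chromosome 12 had 18.8, 18.8 and 21.9 CPM in the females and 4.46, 2.61 and 6.79 CPM in the males, a log2 difference of -2.14 ± 0.29 (adjusted p = 0.0102, edgeR). Stom lost its call in 6 of 12 other settings, with a log2 difference of -1.16 to -0.88 and an adjusted p of up to 0.255 in these. 1700030C10Rik lost its call without Female sham 3 (log2 difference -2.07, adjusted p = 0.148, edgeR) or Male sham 1 (-2.14, adjusted p = 0.129, edgeR). Kdm5d, with no count in any female library, lost its call in 4 settings, among them each in which a male library was left out, with an adjusted p of 0.0659 to 0.148 (edgeR). Without Female sham 1, 22 genes passed, and without Male sham 1, 5 did.

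No gene of the neuronal lists passed. Calca had 1186 ± 176 CPM in females and 1398 ± 150 CPM in males, a log2 difference of 0.20 ± 0.11 (adjusted p = 0.614, edgeR), and Nefl differed by 0.06 ± 0.13 (adjusted p = 0.915, edgeR). The itch neuron genes went in both directions: of 8 tested, 2 were higher in each female library (Il31ra and Nppb), 1 was higher in each male library (Mrgprx1) and 5 overlapped, against 15.2% of all tested genes without overlap. Il31ra had 43.3 ± 1.60 CPM in females and 25.2 ± 6.18 CPM in males (adjusted p = 0.382, edgeR), Nppb 16.7 ± 3.12 and 7.94 ± 3.60 CPM (adjusted p = 0.484, edgeR), and Mrgprx1 0.658 and 1.496 CPM (adjusted p = 0.626, edgeR). A p that misses the threshold in 3 against 3 libraries does not show equal levels.

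**Figure D5:**
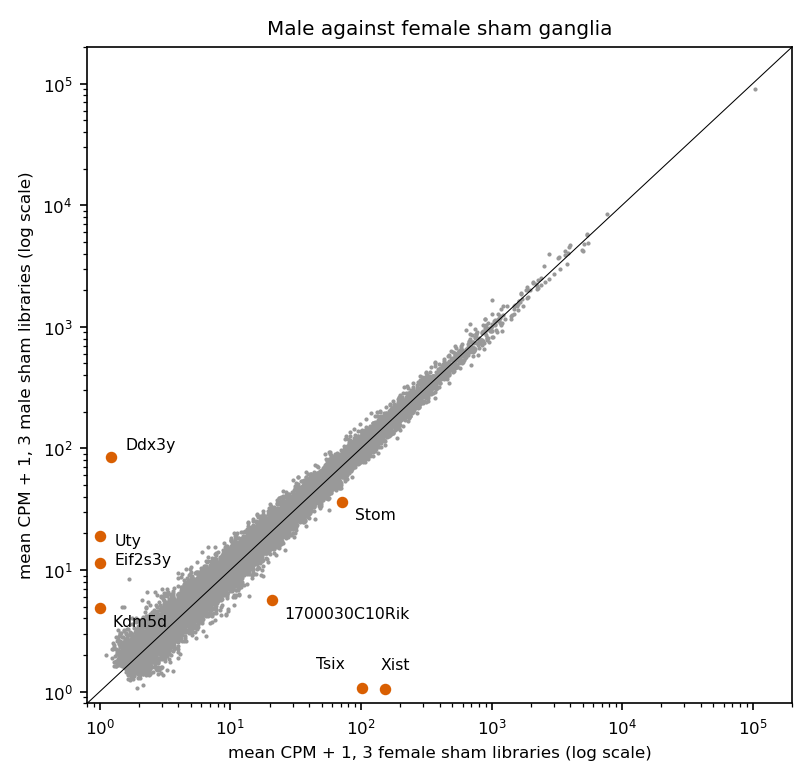
Mean CPM + 1 of each tested gene in the 3 female and the 3 male sham libraries, both axes on log scales, with the line of equal levels. Orange points mark the 8 genes that passed: 4 Y-linked genes at the left, Xist and Tsix at the bottom, and Stom and 1700030C10Rik below the line.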

How the data were processed

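RNA was measured in 6 sham libraries, 3 female and 3 male, with a 3′ end kit, per the labels' protocols, which also name random hexamer priming. The authors deposited 1 table of raw counts per gene and library, per the file headers. Bowtie2, bedtools and the mm10 build are named in the submitters' processing notes, and no source used here gives the annotation or strand setting. The deposited counts of rows that share a symbol were summed (35 symbols) and scaled to the library total (CPM). Total counts ran from 13009808 to 14737582, so 3 counts correspond to 0.204 to 0.231 CPM. Limits from a count of 0 cover counting error only.

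Levels per kilobase used the GENCODE vM21 transcript length, matched for 22862 of 23238 symbols. Sexes were compared with edgeR 4.0.16 (quasi-likelihood test, TMM factors, R 4.3.3, limma 3.58.1), with DESeq2 1.42.0, other scalings and filters, and each library left out as alternatives. Values were computed with Python 3.11.15, numpy 2.4.6, pandas 2.3.3 and scipy 1.17.1, shared stretches found with blastn 2.17.0, and figures drawn with matplotlib 3.10.9. The sex test and spread measures were tested on simulated data. Replicate numbers did not pair the libraries: same-numbered libraries had correlations of -0.092, -0.023 and 0.012.

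Named genes were the 20 with the highest mean, the 3 highest of each list (any member for neuronal, glial, vascular and immune lists), the 20 most and 10 least variable, the called genes, the 4 markers and the 3 most abundant in no list. The libraries, genes and lists were chosen with earlier results of these data known. Among lists not described in the report, Scd2 and Acly led fatty acid synthesis (list median 224 CPM), Tef led the clock list (23.8 CPM), and the sex hormone receptors had a median of 13.0 CPM. Some genes that the rule names are not reported here. The glucocorticoid list had a median of 61.4 CPM and the cell cycle list 8.81 CPM.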

Additional observations from a re-analysis of the deposited data

Results flagged for a closer look

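Of 59 measures checked for 1 library far from the other 5, 4 passed the limit. Chance alone gives about 1 in 20, so this count is near the chance share, and the measures are not independent. The median of the MHC class II genes was 94.4 CPM in Male sham 2 and 21.5 to 34.4 CPM in the others. Male sham 3 held the other 3. Rn45s had 61446.5 CPM there against 97799.9 to 110285.9 CPM. Malat1 had 5731.3 CPM against 2642.6 to 3093.0 CPM. Tubb5 had 2298.7 CPM against 2889.9 to 3079.9 CPM. The cause was not tested.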

How the results depend on the processing

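The number of genes called between the sexes was 8, and 29 with DESeq2. It was 5 to 22 with 1 library left out, highest without Female sham 1 and lowest without Male sham 1. With the replicate number as a block it was 6, and the replicate numbers did not pair the libraries. Of 96 values of the 8 called genes under other settings, 84 stayed past the threshold, 12 lost it and 0 reversed. The share of the 100 most abundant symbols was 29.0%, 21.5% without the ribosomal row, and 28.65% to 29.5% with 1 library left out. Genes with an SD of 0.5 or more numbered 168 at a mean of at least 20 CPM (2.48% of 6775), where fewer genes were ranked, and 208 to 718 with 1 library left out. Against the pan-neuronal median on the log2 scale, summed levels gave satellite glia -2.65, myelinating Schwann -2.59, endothelial -7.29, mural -8.36, macrophage -7.50, erythroid -2.26, peptidergic -4.03 and nonpeptidergic -4.95. Levels per kilobase gave myelinating Schwann -4.77, fibroblast -2.98, endothelial -7.34, mural -8.35, macrophage -6.28, erythroid -3.17, peptidergic -3.65 and nonpeptidergic -3.73. Members of at least 1 CPM gave mural -6.59. With 1 library left out, the satellite glia value from list medians ran from -3.998 to -3.69. Leaving out 1 of 6 values always moves their mean by less than 1 SD, so the class values could not fail that limit. The cause of these shifts was not tested. Depth limits levels under 0.231 CPM.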

Other observations

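Of 15 clock genes, 14 were tested between the sexes, and 4 had female and male libraries that did not overlap, where 15.2% of all tested genes did not overlap. Of these 4, 3 were higher in each male library and 1 in each female library, and they are named here after their values were seen. Per1, a repressor of the clock, had 18.6 ± 1.03 CPM in females and 31.3 ± 2.40 CPM in males (SD, n = 3, adjusted p = 0.401, edgeR across all genes). Per2, its relative, had 12.7 and 23.7 CPM (adjusted p = 0.499, edgeR), and Nr1d2 35.8 and 47.7 CPM (adjusted p = 0.533, edgeR). Nr1d1, which represses Arntl, had 30.0 CPM in females and 17.5 CPM in males (adjusted p = 0.382, edgeR across all genes). The other 10 overlapped, and the median log2 difference of the list was -0.04. No source used here gives the time of day of tissue collection.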
